A study of Mus musculus with 6 samples.

Results

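A set of 10 genes that encode tissue-specific regulators of alternative splicing was followed in the embryonic mouse head at day 8.5. They are Ptbp1, Ptbp2, Ptbp3, Rbfox2, Mbnl1, Mbnl2, Nova1, Esrp1, Esrp2 and Srrm2, chosen by name, and they make up 10 of the 54532 gene IDs in each count file and 10 of the 14008 genes tested. The comparison was between wild-type embryos and neural crest mutants of Sf3b4. This gene encodes a subunit of SF3B, the part of the U2 particle that binds branch sites of introns. Heads were pooled, 3 to a sample, before defects of form appeared, and total RNA from 3 such pools per genotype was sequenced. Titles name the mutants homozygous nulls, but genotype entries and the design text limit the deletion to neural crest cells, and this second reading is used here. No label names the driver of the deletion, the strain or any transgene in the controls. Since crest is a minor part of a head, each value averages over many tissues. In such bulk samples fewer cells of a type and less RNA per cell cannot be told apart.

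Splicing regulators of this kind bind short motifs in precursor RNA and decide, cell type by cell type, which cassette exons are kept. PTBP1 holds neural exons out of transcripts in non-neural cells and progenitors, and PTBP2, its close relative, takes over early in neuronal differentiation before it too declines. RBFOX2, NOVA1 and the MBNL proteins shape neuronal, muscle and mesenchymal programmes, while ESRP1 and ESRP2 maintain the epithelial forms of transcripts such as that of Fgfr2. In mice, Rbfox2 in neural crest and Esrp1 in epithelium are both needed for normal development of the face. SRRM2 differs from the rest: it is a very large, serine- and arginine-rich protein found widely in tissues, which joins the active spliceosome and, with SON, organises nuclear speckles.

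Several of these genes control their own family through a small exon, and the exons are shown here because the counts per gene cannot see them. Skipping the 34-base exon of Ptbp1 or Ptbp2 shifts the reading frame and sends the transcript to nonsense-mediated decay. PTBP1 protein favours that skipping in both genes. The sequences below are from GENCODE M21 transcripts on mm10, 5′ to 3′, with capitals marking the bases that differ from the Ptbp1 exon.
Ptbp1: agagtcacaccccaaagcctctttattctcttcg
Ptbp2: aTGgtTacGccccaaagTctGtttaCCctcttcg
Ptbp3: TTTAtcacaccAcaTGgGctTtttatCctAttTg

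The Ptbp1 exon lies at chr10:79862014-79862047 on the plus strand, the Ptbp2 exon at chr3:119724612-119724645 and the Ptbp3 exon at chr4:59485339-59485372, both on the minus strand. The Ptbp2 exon matched that of Ptbp1 at 26 of 34 bases and the Ptbp3 exon at 22. Of 7 annotated Ptbp1 transcripts that span the exon 2 lack it, and both are annotated as targets of nonsense-mediated decay. For Ptbp2, 3 of 6 spanning transcripts lack it and 2 of these 3 carry that annotation, whereas all 9 spanning Ptbp3 transcripts keep the corresponding exon. A difference in the summed count of Ptbp1 or Ptbp2 can therefore come from either kind of transcript.

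The Mbnl genes share a 54-base exon that promotes nuclear localisation of the protein and whose inclusion MBNL proteins themselves repress. The exons are set side by side, with capitals marking the bases of Mbnl2 that differ from Mbnl1.
Mbnl1: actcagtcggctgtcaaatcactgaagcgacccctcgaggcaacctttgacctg
Mbnl2: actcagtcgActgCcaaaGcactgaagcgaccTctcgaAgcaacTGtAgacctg

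The exons lie at chr3:60614683-60614736 and chr14:120395712-120395765, both on the plus strand, and were identical at 46 of 54 bases. It was absent from 9 of 14 spanning Mbnl1 transcripts and from 3 of 6 spanning Mbnl2 transcripts in the annotation.

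The libraries held 6930827 to 12251910 counts, and 14008 genes passed the filter on low counts. Sf3b4 itself was read at 63.9 to 77.7 CPM (the authors' counts scaled to a common library size with TMM factors) in wild-type pools and 56.1 to 64.2 CPM in mutant pools. Its log2 fold change of -0.24 (SE 0.0918) missed the threshold (edgeR adjusted p = 0.128), and a total over the gene cannot tell deleted exons from kept ones. Wild-type replicate 1 and mutant replicate 3 each held 1 count summed over 4 Y-linked genes, where the other pools had 344 to 664. None of 68 listed markers of epithelium, neurons, neural progenitors, neural crest, mesoderm, endothelium and blood was at 0 in every pool, a bar that 1 count would meet. Enough counts to test were held by 10 of 15 neuron markers and 12 of 14 markers of mesoderm, endothelium and blood. Of 12 neural crest markers 6 fell and none rose, where 3.88% of all tested genes were called lower and 2.65% higher. The summed levels of these markers were 493 to 533 CPM in wild-type and 357 to 406 CPM in mutant pools. Of 12 neural progenitor markers 2 fell and none rose, and 8 of the 12 fold changes were above 0. Among the 12 tested markers of mesoderm, endothelium and blood, 2 rose and none fell.

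Among the 10 regulators, Ptbp2 rose and Srrm2 fell in the mutant pools, and the other 8 did not pass the test. Of all tested genes 2.65% were called higher and 3.88% lower (two-sided quasi-likelihood test in edgeR, threshold 0.05 on the Benjamini-Hochberg adjusted p). The mutant pools lay entirely above the wild-type pools for Ptbp2, Esrp1 and Esrp2 and entirely below them for Rbfox2 and Srrm2, 5 of the 10, while 28.3% of all tested genes had groups that did not overlap (13.8% higher and 14.4% lower). The median log2 fold change of the 10 genes was 0.01, against 0.00 over all tested genes. Positive fold changes numbered 5 and negative ones 5.

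**Figure D1:**
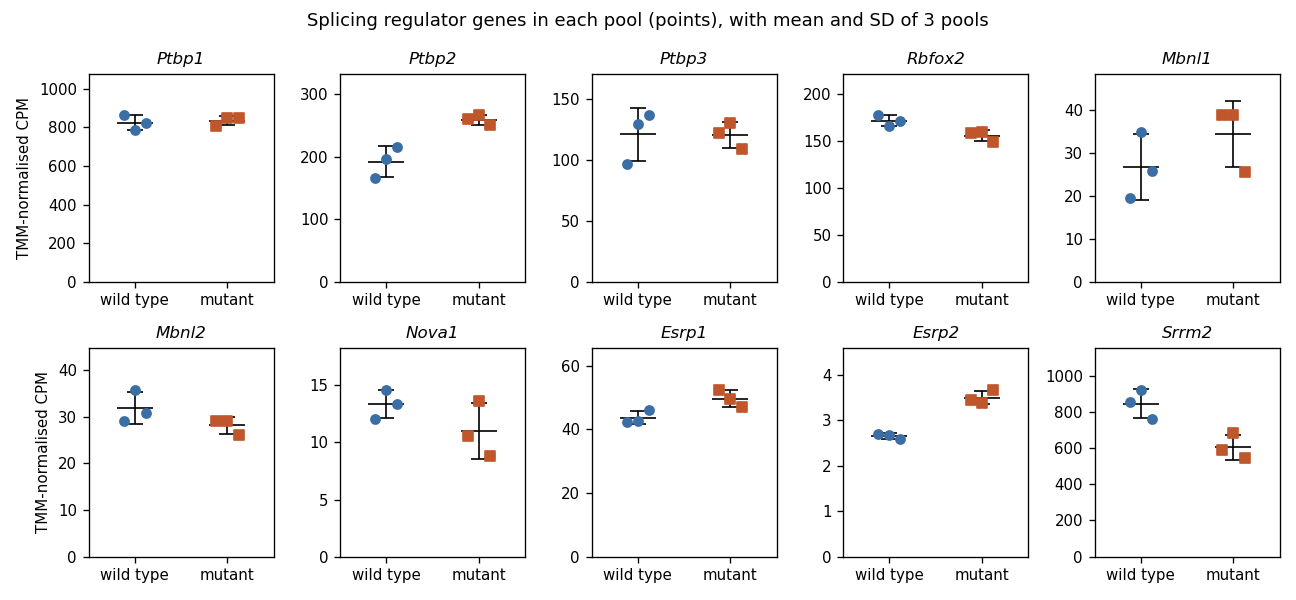
TMM-normalised CPM (y axes, from 0) of the 10 splicing regulator genes in each of 3 wild-type pools (circles) and 3 mutant pools (squares), with the mean and SD of each genotype in black. Ptbp2 lies at 249.7 to 266 CPM in the mutants and 165 to 215 CPM in wild type, and Srrm2 at 548 to 683 CPM in the mutants and 763 to 923 CPM in wild type.

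Levels of different genes were compared as CPM per kilobase of annotated exon. This divides by all exons of a gene, so it understates genes such as Mbnl1 with many long alternative exons. On this scale Ptbp1 stood highest, at 166 to 182 in wild-type and 171 to 179 in mutant pools. Srrm2 followed at 59.4 to 71.9 and 42.7 to 53.2. Rbfox2, Ptbp2 and Ptbp3 formed a middle tier, with wild-type levels of 20.4 to 21.7, 18.0 to 23.5 and 12.9 to 18.3 CPM per kilobase, and neighbours in that order overlapped. In the mutant pools Ptbp2, at 27.2 to 29.0, lay above Rbfox2, at 18.3 to 19.5, without overlap. Esrp1 came next at 6.69 to 7.31 in wild-type pools, then Mbnl2 at 2.43 to 2.98, Nova1 at 1.39 to 1.66 and Mbnl1 at 1.03 to 1.86. The last pair overlapped in both genotypes. Esrp2 was lowest, at 0.595 to 0.619 in wild-type and 0.776 to 0.842 in mutant pools.

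Ptbp2 (ENSMUSG00000028134, chromosome 3, 119718742 to 119784466, minus strand), the neural member of the PTB family, had 165, 196 and 215 CPM in wild type and 260.0, 266 and 249.7 CPM in mutants. Each mutant pool was above the highest wild-type pool, and the wild-type pools were more spread out, with replicate 1 the lowest. The means were 192 ± 25.4 and 258 ± 8.14 CPM (SD, n = 3 pools each). The log2 fold change was 0.43 (SE 0.089, 95% interval 0.24 to 0.62), a rise of 34.6% (edgeR quasi-likelihood test, adjusted p = 0.0103).

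The call of Ptbp2 was lost without mutant replicate 1, where the log2 fold change was 0.43 and the edgeR adjusted p was 0.0559. It was also lost when each pool's trend with exon length and GC content was removed, with a log2 fold change of 0.33 and an edgeR adjusted p of 0.171. Ptbp2 is a long gene with 34.2% GC in its longest transcript, within the lowest of 5 equal GC classes of tested genes. That class had a median log2 fold change of 0.07 and 3.18% of its genes called higher. Ptbp2 also lay in the longest of 5 classes by exon length, where 1.29% of genes were called higher and the median log2 fold change was -0.10. The gene lies 23.5 Mb from Sf3b4 on the same chromosome, and linkage to the targeted allele was not tested.

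Ptbp1 (ENSMUSG00000006498, chromosome 10, 79854427 to 79864771, plus strand), the general repressor of neural exons, did not follow Ptbp2. It was read at 863, 785 and 822 CPM in wild-type pools, while mutant pools had 808, 848 and 850.0 CPM, so the groups overlapped fully. The log2 fold change was 0.02 with a 95% interval of -0.13 to 0.17 (edgeR adjusted p = 0.893). Genes on the opposite strand cover 20.7% of the exonic bases of Ptbp1, chiefly Plppr3 and E130317F20Rik. These were read at 15.2 to 22.7 and 9.47 to 14.1 CPM, far below Ptbp1, although reads of the shared stretch may be assigned to either gene or to none.

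Ptbp3 (ENSMUSG00000028382, chromosome 4, 59471868 to 59549364, minus strand), the family member known from blood cells, was read at 96.6, 130 and 137 CPM in the controls and 122, 130.3 and 109 CPM in the mutants. The genotypes overlapped, with equal means of 121 CPM. The 95% interval of its log2 fold change ran from -0.27 to 0.26 (edgeR adjusted p = 0.991).

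Per kilobase of exon, Ptbp1 made up 80.6% to 85.5% of the summed PTB family level in wild-type pools and 79.2% to 81.1% in mutant pools. The share of Ptbp2 was 8.44%, 10.5% and 10.9% in wild-type pools and 13.2%, 12.9% and 12.3% in mutant pools, without overlap. The balance of Ptbp2 against Ptbp1, the log2 difference of their CPM in the same pool, was -2.39, -2.0 and -1.93 in wild-type pools and -1.64, -1.67 and -1.77 in mutant pools. It was 0.42 higher in the mutants. A comparison of 3 against 3 pools cannot give a p below 0.1, the value found (exact permutation test, two-sided, 0.133 adjusted over 4 pairs). No balance was corrected for exon length and GC content. With that correction the log2 fold change was 0.33 for Ptbp2 and 0.06 for Ptbp1. The balance of Ptbp3 against Ptbp1 overlapped between genotypes and differed by -0.02 (exact permutation p = 1; adjusted over 4 pairs 1).

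**Figure D2:**
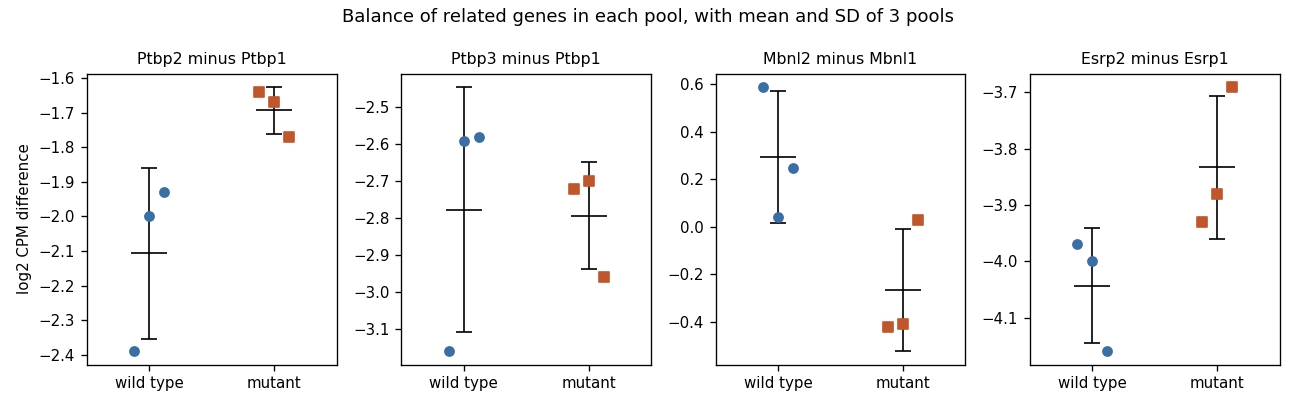
Log2 difference of TMM-normalised CPM between related genes (y axis, each panel with its own range) in each wild-type pool (circles) and mutant pool (squares), with mean and SD of 3 pools. The Ptbp2 balance is higher in all mutant pools, the Ptbp3 balance overlaps, the Mbnl2 balance is lower in all mutant pools by a narrow gap (0.03 against 0.04 at the closest pools), and the Esrp2 balance is higher in all mutant pools.

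Rbfox2 (ENSMUSG00000033565, chromosome 15, 77078990 to 77307004, minus strand), a regulator that binds a GCAUG core and acts in neural crest, muscle and brain, was read at 177, 166 and 171 CPM in wild-type pools, against 158, 159 and 149 CPM in mutant pools. Every mutant pool was below every wild-type pool, but the gap was small. The log2 fold change was -0.14 (SE 0.0707, 95% interval -0.29 to 0.01), which did not pass (edgeR adjusted p = 0.236), and it was -0.05 after the correction for length and GC content. Among the 4 pools that held Y-linked reads it was -0.09.

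Nova1 (ENSMUSG00000021047, chromosome 12, 46694517 to 46818929, minus strand), a neuronal regulator that binds clusters of YCAY motifs, was low at this stage. It was read at 12.1, 14.6 and 13.4 CPM in wild-type pools, while mutant pools had 10.6, 13.6 and 8.80 CPM, on 65 to 156 counts per pool. The groups overlapped through mutant replicate 2. Its log2 fold change of -0.27 had a 95% interval of -0.60 to 0.07 (edgeR adjusted p = 0.33). The value was -0.44 without mutant replicate 2 and -0.15 without mutant replicate 3, and passed in neither case. Of 15 neuron markers 10 had enough counts to test. Neurod1 rose, from 0, 2 and 2 counts in wild-type pools to 31, 14 and 10 in mutant pools, and none fell. Of all tested genes 2.65% were called higher and 3.88% lower. The 10 fold changes were above 0 for 4 and below 0 for 6, with a log2 median of -0.12. The mutant pools lay entirely below wild type for Tubb3, Map2, Elavl3, Elavl4 and Neurog1, and entirely above for Neurod1 and Stmn2. Over all tested genes 14.4% were lower and 13.8% higher without overlap. The summed level of the 15 markers was 141 to 164 CPM in wild-type pools and 145 to 147 CPM in mutant pools, and its part in the Nova1 value was not tested.

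Mbnl1 (ENSMUSG00000027763, chromosome 3, 60472830 to 60629750, plus strand) and Mbnl2 (ENSMUSG00000022139, chromosome 14, 120275669 to 120431697, plus strand) encode muscleblind proteins, which bind YGCY motifs and are best known from muscle, where their sequestration underlies myotonic dystrophy. Mbnl1 was the most variable of the 10 genes within a genotype. It was read at 19.4, 34.8 and 25.8 CPM in the controls and 38.7, 38.7 and 25.6 CPM in the mutants. The low wild-type pool, replicate 1, and the low mutant pool, replicate 3, were those with 1 Y-linked count each. The log2 fold change was 0.40 (SE 0.243, 95% interval -0.18 to 0.98) and did not pass (edgeR adjusted p = 0.376). Leaving out wild-type replicate 1 gave 0.22 and leaving out wild-type replicate 2 gave 0.62, neither of which passed.

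With Y-linked reads as a covariate Mbnl1 did pass (0.38, edgeR adjusted p = 0.027), as it did after the correction for length and GC content (0.54, edgeR adjusted p = 0.00765) and with no filter on low counts (0.40, edgeR adjusted p = 0.0177). Within the pools with Y-linked reads it was 0.37 and did not pass (edgeR adjusted p = 0.155). Between the pools without them the levels were 19.4 CPM in wild type and 25.6 CPM in mutant, with no replicate. Mbnl1 has the longest annotated exon sequence of the 10 genes (18717 bases) and lies 35.5 Mb from Sf3b4 on chromosome 3.

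Mbnl2 was read at 29.1, 35.7 and 30.7 CPM in wild-type pools, against 29.1, 29.1 and 26.1 CPM in mutant pools. Its groups overlapped, and the log2 fold change was -0.17 (95% interval -0.39 to 0.05, edgeR adjusted p = 0.355). It was -0.08 without wild-type replicate 2 and -0.03 with the correction for length and GC content. The balance of Mbnl2 against Mbnl1 was 0.59, 0.04 and 0.25 in wild-type pools and -0.42, -0.41 and 0.03 in mutant pools. It differed by -0.56, with the smallest exact permutation p that 6 pools allow (0.1; 0.133 adjusted over 4 pairs). Per kilobase of exon, Mbnl1 made up 29.9% to 38.4% of the pair in wild-type pools and 38.6% to 46.1% in mutant pools.

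Esrp1 (ENSMUSG00000040728, chromosome 4, 11331933 to 11386783, minus strand) and Esrp2 (ENSMUSG00000084128, chromosome 8, 106130319 to 106136974, minus strand) encode the epithelial splicing regulatory proteins. Esrp1 was read at 42.2, 42.8 and 46.1 CPM in wild-type pools, while mutant pools had 52.4, 49.5 and 47.1 CPM. All mutant pools were above all wild-type pools, with 46.1 and 47.1 CPM the nearest values. The log2 fold change of 0.19 (SE 0.0874, 95% interval 0.00 to 0.37) did not pass (edgeR adjusted p = 0.213).

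Esrp2 had few reads: 29, 19 and 30 counts in wild-type pools and 42, 32 and 27 counts in mutant pools. Scaled to library size these were 2.69, 2.68 and 2.58 CPM against 3.45, 3.37 and 3.66 CPM, again without overlap. Its log2 fold change of 0.39 (SE 0.231, 95% interval -0.10 to 0.88) did not pass (edgeR adjusted p = 0.325). On the opposite strand Nfatc3 and a second gene share 7.79% of its exonic bases. Nfatc3 was read at 86.4 to 103 CPM, well above Esrp2.

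Per kilobase of exon, Esrp1 made up 89.9% to 92.5% of the pair in every pool. The balance of Esrp2 against Esrp1 was -3.97, -4.00 and -4.16 in wild-type pools and -3.93, -3.88 and -3.69 in mutant pools, a difference of 0.21 (exact permutation p = 0.1, the smallest possible; 0.133 adjusted over 4 pairs). Among the epithelial markers tested alongside them, 15 genes in all, 3 rose and none fell, where 2.65% of all tested genes were called higher. The 3 were Cldn6 (edgeR adjusted p = 0.00292), Cldn7 (edgeR adjusted p = 0.0479) and Spint1 (edgeR adjusted p = 0.0499), both of the latter near the threshold. Of the 15 markers 13 had positive fold changes, with a list median of 0.28 on the log2 scale, against 0.00 over all tested genes. Their summed level was 546 to 599 CPM in wild-type pools and 685 to 738 CPM in mutant pools, and its part in the Esrp values was not tested.

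Srrm2 (ENSMUSG00000039218, chromosome 17, 23790532 to 23824741, plus strand) showed the largest fall of the 10 genes. It was read at 858, 923 and 763 CPM in the controls and 590, 683 and 548 CPM in the mutants. The highest mutant pool lay below the lowest wild-type pool. The means were 848 ± 80.2 and 607 ± 68.9 CPM (SD, n = 3 pools each). Its log2 fold change was -0.48 (SE 0.0917, 95% interval -0.68 to -0.29), a fall to 0.716 of the wild-type level (edgeR adjusted p = 0.00599).

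Srrm2 is long, with 12842 bases of annotated exon, and long genes leaned lower in these mutant pools. In the longest of the 5 length classes 10.4% of genes were called lower and the median log2 fold change was -0.10. After the correction for length and GC content the log2 fold change of Srrm2 was -0.31 and still passed (edgeR adjusted p = 0.0122). The call was lost in the 4 pools with Y-linked reads alone, at -0.41 (edgeR adjusted p = 0.0646). Only 0.0311% of its exonic bases are shared with another gene.

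**Figure D3:**
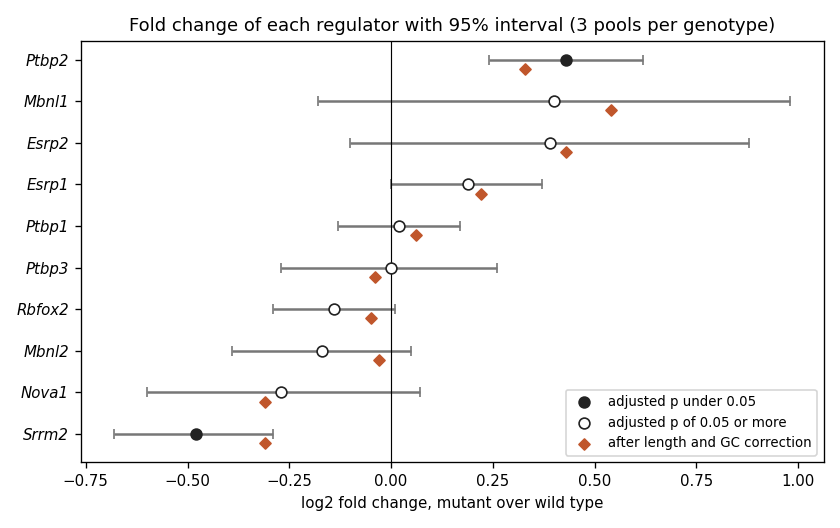
Log2 fold change of mutant over wild type (x axis) for each of the 10 regulators, with 95% intervals from the edgeR fit over 3 pools per genotype. Filled circles passed the test (Ptbp2 at 0.43 and Srrm2 at -0.48), open circles did not, and diamonds give the value after correction for exon length and GC content, 0.33 and -0.31 for the same genes.

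The genes of other speckle proteins did not follow Srrm2. None of 8 tested genes (Son, Srrm1, Pnn, Acin1, Rnps1, Rbm25, Thrap3 and Bclaf1) was called by edgeR, DESeq2 or limma-voom, and none had an unadjusted edgeR p under 0.05. With 2.65% of all tested genes called higher and 3.88% lower by edgeR, the lack of a call among 8 genes says little. Son, the gene of the other scaffold of speckles, was read at 603, 669 and 604 CPM in wild-type pools, against 618, 665 and 559 CPM in mutant pools. Its log2 fold change was -0.02 (95% interval -0.20 to 0.15). Rbm25 (0.13) and Srrm1 (-0.10) had the smallest p values of the list, and edgeR adjusted p values of 0.466 and 0.495.

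Of 41 other splicing regulators of this kind 37 had enough counts to test. Of these 37, 1 rose and 3 fell, while 2.65% of all tested genes were called higher and 3.88% lower. The median log2 fold change of the 37 genes was -0.04. Rbm38, which encodes an RNA-binding protein and is a known p53 target, rose in all mutant pools. It was read at 31.8, 24.6 and 26.6 CPM in wild-type pools, while mutant pools had 51.3, 53.3 and 44.1 CPM, which is 0.84 on the log2 scale (SE 0.11, edgeR adjusted p = 0.000293). The call held with any 1 pool left out.

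Rbfox3, the neuronal relative of Rbfox2 whose protein is the neuron marker NeuN, fell. It was read at 3.98, 3.25 and 3.70 CPM in the controls and 1.56, 1.79 and 2.17 CPM in the mutants, on only 16 to 43 counts per pool. The log2 fold change was -1.02 (SE 0.258, edgeR adjusted p = 0.0277). Msi1, the gene of a translational and splicing regulator of neural progenitors, fell by 0.27 on the log2 scale (edgeR adjusted p = 0.0409), and Rbm5 fell by 0.28 (edgeR adjusted p = 0.0497). When the fit used the 4 Y-positive pools alone, or left out any 1 mutant pool or wild-type replicate 2, each of these 3 calls was lost, those of Rbfox3 and Rbm5 also without wild-type replicate 1. Those of Msi1 and Rbm5 were lost as well with DESeq2 (adjusted p = 0.0522 and 0.0536), limma-voom, the correction for length and GC content (edgeR adjusted p = 0.0984 and 0.337) and the replicate number as a block (edgeR adjusted p = 0.0691 and 0.0867). Rbm5 was lost also with RLE size factors (edgeR adjusted p = 0.0557) and without robust estimation. Rbfox3 was not called with DESeq2 either, which gave it no adjusted p.

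**Figure D4:**
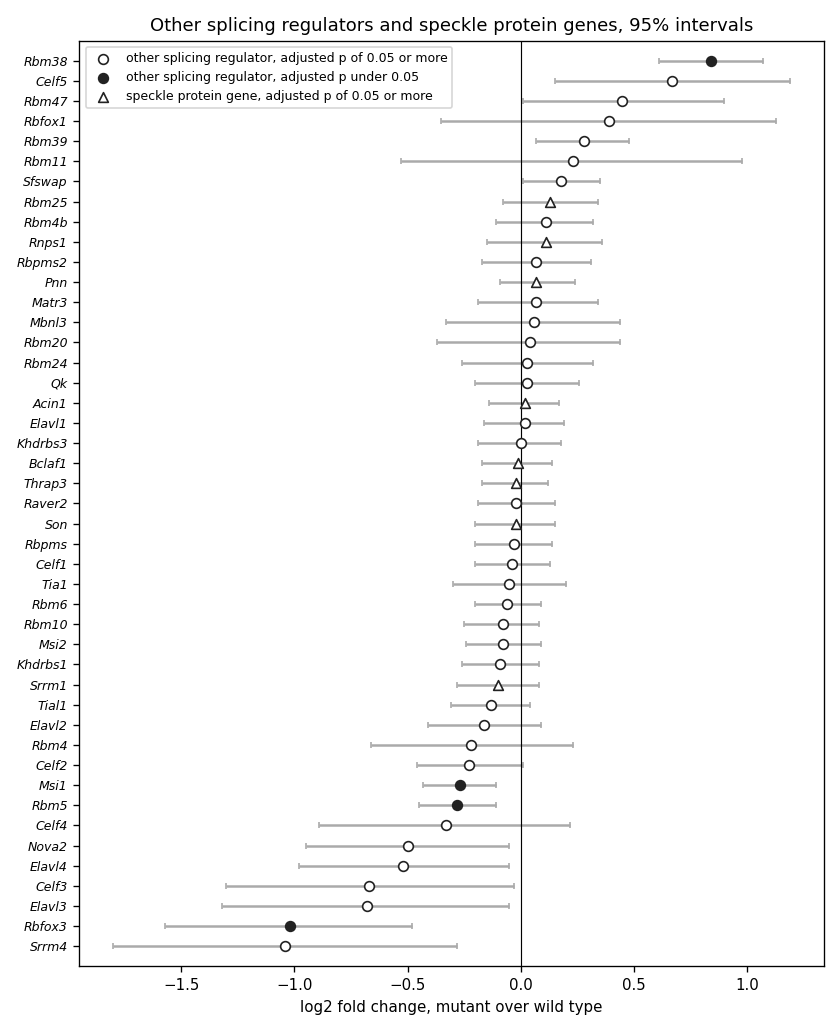
Log2 fold change of mutant over wild type (x axis) with 95% intervals for 37 other splicing regulators (circles) and 8 speckle protein genes (triangles), filled where the edgeR adjusted p was under 0.05. Rbm38 at 0.84 is the filled point on the right, and Msi1, Rbm5 and Rbfox3 are those on the left, while all triangles are open and within 0.13 of 0.

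Close relatives of the 10 genes among the other regulators, picked after their values were seen, had fold changes on both sides of 0. Srrm4, a gene of the Srrm family whose protein activates neuronal microexons, was read at 2.13, 1.41 and 2.41 CPM in wild-type pools. Mutant pools had 1.23, 0.947 and 0.677 CPM, without overlap, on 5 to 28 counts per pool. Srrm4 did not pass (edgeR adjusted p = 0.0964). The log2 fold changes of Nova2 (-0.50), Mbnl3 (0.06) and Rbfox1 (0.39) did not pass either. The groups of Nova2 did not overlap, and Rbfox1 had 11 to 23 counts per pool. Srrm3 had too few counts to test. A set of 13 neuron-restricted genes, also grouped after values were seen, held Rbfox1, Rbfox3, Nova2, Srrm3, Srrm4, Celf3 to Celf6, Elavl2 to Elavl4 and Khdrbs2. Of 10 tested, 8 had fold changes below 0 and 2 above (log2 median -0.51). In 5 the mutant pools lay entirely below wild type, as in 14.4% of all tested genes. In Celf5 they lay entirely above it (3.16 to 4.19 against 2.24 CPM on average), as in 13.8% of all tested genes. Only Rbfox3 was called. Because the set was picked with values known, these counts describe it and test nothing.

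The genes whose profiles over the 6 pools were most like those of Ptbp2 and Srrm2 were found by the root mean square difference of centred log2 CPM among 9024 protein-coding genes with at least 10 CPM on average. Ado (0.025), Zfp955a (0.027) and Zfp141 (0.036) were nearest to Ptbp2, and 152 genes were within 0.1 of it. Zmiz1 (0.017), Lrp1 (0.026) and Ep400 (0.038) were nearest to Srrm2, with 133 genes within 0.1. With 6 pools many genes share a profile, and these lists describe likeness only.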

How the data were processed

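Per the labels' protocols, RNA came from RNeasy micro columns and libraries from the TruSeq Standard Total RNA kit. For each of 6 pools the authors deposited raw, unscaled counts by gene. The submitters' processing notes name mm10. Aligner, counter, annotation and strand setting: not given in the sources used here. Of 54532 gene IDs 54495 matched GENCODE M21, which gave symbols, coordinates, exon lengths and exon sequences. The 37 mitochondrial genes are at 0 in every pool.

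Counts were filtered with filterByExpr, scaled by TMM and tested with edgeR 4.0.16 (robust quasi-likelihood test, R 4.3.3) over 14008 genes, with Benjamini-Hochberg adjustment over all of them. Standard errors are the log2 fold change divided by the square root of F. Pools were grouped by title and counted as replicates; nothing says that they came from separate litters, so p-values measure the spread between these pools. No pair of pools within a genotype looked like copies of a library (chi-square of counts over degrees of freedom, 2.81 to 9.19). Pairs across genotypes were not checked in this way. The members, gene lists and alternatives were chosen with earlier results of these data known. Named genes are the 10 members, Sf3b4, up to 6 called genes of each further list (where none passed, the 2 lowest p) and the 3 genes most like each called member; others were picked with values known. On simulated counts (13820 genes) the edgeR step recovered 72.7% of genes changed 1.5-fold and 81.8% of those changed 2-fold. In that simulation 8 of 173 calls were false. Changes under 1.5-fold, such as those of all 10 members, were not simulated. Alternatives were DESeq2 1.42.0, limma-voom (limma 3.58.1), other scalings and filters, no robust estimation, a replicate block, each pool left out, Y-linked reads as a covariate or a restriction, and an offset that removes each pool's trend with exon length and GC content (splines, 4 degrees of freedom each). On simulated data with a length trend, that offset changed the slope from -0.103 to -0.00402 per doubling.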

Additional observations from a re-analysis of the deposited data

How the results depend on the processing

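Ptbp2 was above 0 and Srrm2 below 0 in all 17 alternatives run. Ptbp2 passed in 15, at log2 fold changes of 0.33 to 0.52, and not without mutant replicate 1 (0.43) or with the length and GC correction (0.33). Srrm2 passed in 16, at -0.57 to -0.31, and not in the 4 pools with Y-linked reads (-0.41). Mbnl1 passed with no filter on low counts (0.40), with the length and GC correction (0.54) and with the Y-linked covariate (0.38), which brought the count of regulators called higher from 1 to 2 in the first and last of these. With the correction it stayed at 1, Mbnl1 in place of Ptbp2. It was 0 to 1 with 1 pool left out, and among Y-positive pools the count called lower was 0. Values near 0 changed sign: Ptbp1 with library size alone (-0.00373) and over a range of -0.01 to 0.06 with 1 pool left out, Ptbp3 with limma-voom (0.01), RLE factors (0.000739), the replicate block (0.01), the Y-linked covariate (0.000475) and over -0.14 to 0.10 with 1 pool left out. The balance of Ptbp3 against Ptbp1 ran from -0.21 to 0.08 with 1 pool left out. For the other splicing regulators the count called higher, 1, became 2 with no filter, 2 with the Y-linked covariate, 3 with the length and GC correction and 1 to 2 with 1 pool left out. The count called lower, 3, became 0 with DESeq2, 1 with limma-voom, 1 with the replicate block, 1 with the length and GC correction, 0 among Y-positive pools and 0 to 3 with 1 pool left out. The cause was not tested. Over all genes the split of 371 higher and 543 lower became 646 and 532 with the length and GC correction and 322 and 658 with library size alone. Leaving out mutant replicate 1 gave 107 and 123, wild-type replicate 2 gave 184 and 183 and wild-type replicate 3 gave 890 and 920.

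The replicate number as a block kept the calls of Ptbp2 (0.44) and Srrm2 (-0.48) and gave 268 higher and 426 lower genes in all. The numbers do not pair the pools: same-numbered pools had correlations of deviations of -0.161, 0.0515 and -0.0598. No pool was most like the pool of its own number in the other genotype. Of the 10 genes Esrp2 had the fewest reads, with 19 to 42 counts per pool.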
